A study of Mus musculus with 13 samples.

Results

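A set of 35 genes of ion and water transport was described in the colon and ileum of mice that drank vancomycin or no antibiotic. They are members of the aquaporins, carbonic anhydrases, transporters and channels for sodium, chloride, bicarbonate and potassium, the aldosterone pathway and the guanylin pathway. They were chosen by name, with earlier results of these data known. All 35 were found by gene symbol among the 19572 probe sets with 1 gene symbol, which stand for 19505 genes. Each had exactly 1 probe set. RNA came from the gut of female FVB mice carrying a syngeneic mammary carcinoma that expresses human HER2, hybridised to 1-colour Affymetrix arrays. The 13 arrays form 4 groups, namely 3 colons with vancomycin, 4 colons with no antibiotic, 3 ilea with vancomycin and 3 ilea with no antibiotic. Vancomycin, which kills mainly Gram-positive bacteria, was dissolved in the drinking water at 200 mg/L from the age of 4 weeks. Mice without antibiotic carried the same kind of tumour, and sacrifice came at 9 weeks (the labels leave unclear whether these count age or treatment) and a tumour volume of 150 mm3. The tissue was gut washed in saline, so every level mixes epithelium, muscle and other cells, and fewer cells of a type cannot be told apart from less RNA per cell.

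The gut epithelium moves water by moving salt. Absorbing cells take up sodium through exchangers and, in the distal colon, through the aldosterone-controlled epithelial sodium channel, while secreting cells release chloride and bicarbonate through CFTR, and water follows through the cells and between them. Carbonic anhydrases supply the protons and bicarbonate that the exchangers trade for sodium and chloride, potassium channels set the electrical force, and guanylin and uroguanylin, peptides released into the lumen, shift the balance towards secretion. The colon and ileum share this machinery and differ in how much of each part they use.

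Values are log2 expression values that the authors made with RMA, in which a difference of 1 is nominally a doubling, and levels are compared only within a probe set. Differences are given with their standard error (SE) and with limma p-values adjusted over all 19572 probe sets, with 0.05 as the threshold. The labels do not say whether arrays come from separate mice and name no cage or batch. The p-values therefore rest on the spread among the arrays at hand, which may be technical, treatment and cage cannot be told apart, and the small number of arrays limits the precision. Tissue markers followed the labels in their means. Hoxb13, a homeobox gene of the hindgut, was at 11.55 to 13.80 in the 7 colons against 5.09 to 5.46 in the 6 ilea. The 4 measured colon identity genes all had higher means in colon, and 1 passed the threshold without antibiotic. Colon and ileum values overlapped for Hoxb9 (10.14 to 10.96 and 8.53 to 10.39) and Hoxd12 (6.36 to 6.98 and 5.88 to 6.49). The mean of 5 ileal markers was 7.35 to 8.40 in colons against 14.18 to 14.94 in ilea. All 5 were lower in colon without antibiotic and 4 under vancomycin. Values overlapped for Gata4, at 7.14 to 7.84 in colons and 7.79 to 9.42 in ilea. Array 11 of the vancomycin ilea stood apart, with a mean correlation to its group of 0.977 against 0.983 and 0.987 for its partners. Its mean over 10 smooth muscle markers was 13.68, against 12.77 in array 13, 12.32 in array 14 and 12.22 to 12.39 in ilea without antibiotic, and its mean over 8 of 9 B cell markers was 10.25, against 7.36 to 8.13 in the other 5 ilea. Vancomycin differences of the ileum were also computed without it, and those values are given gene by gene or as a range. Of the 35 genes, Scnn1g alone lay in the dimmest 33.3% of probe sets. Aqp8, Car1, Car4, Slc26a3, Atp1b1, Guca2a and Guca2b had values above 16, towards the top of a processed scale that reached 18.19. Whether their differences are compressed was not tested.

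Colon and ileum differed in most of these genes. Without antibiotic, 24 of 35 passed the threshold, 17 higher and 7 lower in colon, against 20.5% of all probe sets (11% higher and 9.59% lower). The genes were chosen with earlier results of these data known, and all probe sets include more dim ones. The shares set beside each other here are therefore not a test. The colon was higher in all 3 carbonic anhydrases, in the water channels Aqp4 and Aqp8, in the sodium transporters Slc9a3 and Scnn1a, and in the aldosterone genes Nr3c2 and Hsd11b2. The ileum was higher in the other 4 aquaporins, in the anion exchanger Slc26a6, in the bicarbonate cotransporter Slc4a4 and in uroguanylin, Guca2b. The median difference was 0.69 over the 35 genes and 0.04 over all probe sets. Values did not overlap between the tissues for 26 of 35 genes, against 32.2% of all probe sets, with 19 higher and 7 lower in colon, against 18.1% and 14.1%. At an unadjusted p under 0.05 there were 26 genes, against 30.5%, 19 higher and 7 lower, against 17.2% and 13.2%. Under vancomycin, 20 of 35 passed, 14 higher and 6 lower in colon, against 15.1% of all probe sets, 7.45% higher and 7.67% lower. There, 27 genes did not overlap, against 27.4%, 20 higher (15.3%) and 7 lower (12.1%), and 27 had an unadjusted p under 0.05, against 26.7%, 19 higher (14%) and 8 lower (12.7%). The higher lists shared 12 genes, 34.3% of the 35, against 5.18% of all probe sets. These 12 are 70.6% of the list without antibiotic and 85.7% of the list under vancomycin. Over all probe sets 1013 were higher in both, of 2144 higher without antibiotic and 1459 under vancomycin. All 6 genes lower in colon under vancomycin were among the 7 without antibiotic, 17.1% of the 35 against 5.99% of all probe sets. Over all probe sets 1172 were lower in both, of 1876 lower without antibiotic and 1502 under vancomycin. Some marker lists of other cell types differed between the tissues as well. Without antibiotic 8 of 10 smooth muscle markers were higher and 6 of 6 measured adipocyte markers lower in colon. Of the goblet markers 2 of 8 were higher there, and of the measured neuron and glia markers 2 of 6. Of the measured B cell markers 0 of 8 passed, with 0 of 5 erythroid, 0 of 9 endothelial and 0 of 5 pancreas markers. Of 12 epithelial markers 1 was higher, 4 were lower and 7 did not pass, and their mean was 14.64 to 14.72 in colons against 15.05 to 15.13 in ilea. The part of these cells in the differences was not tested.

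**Figure D1:**
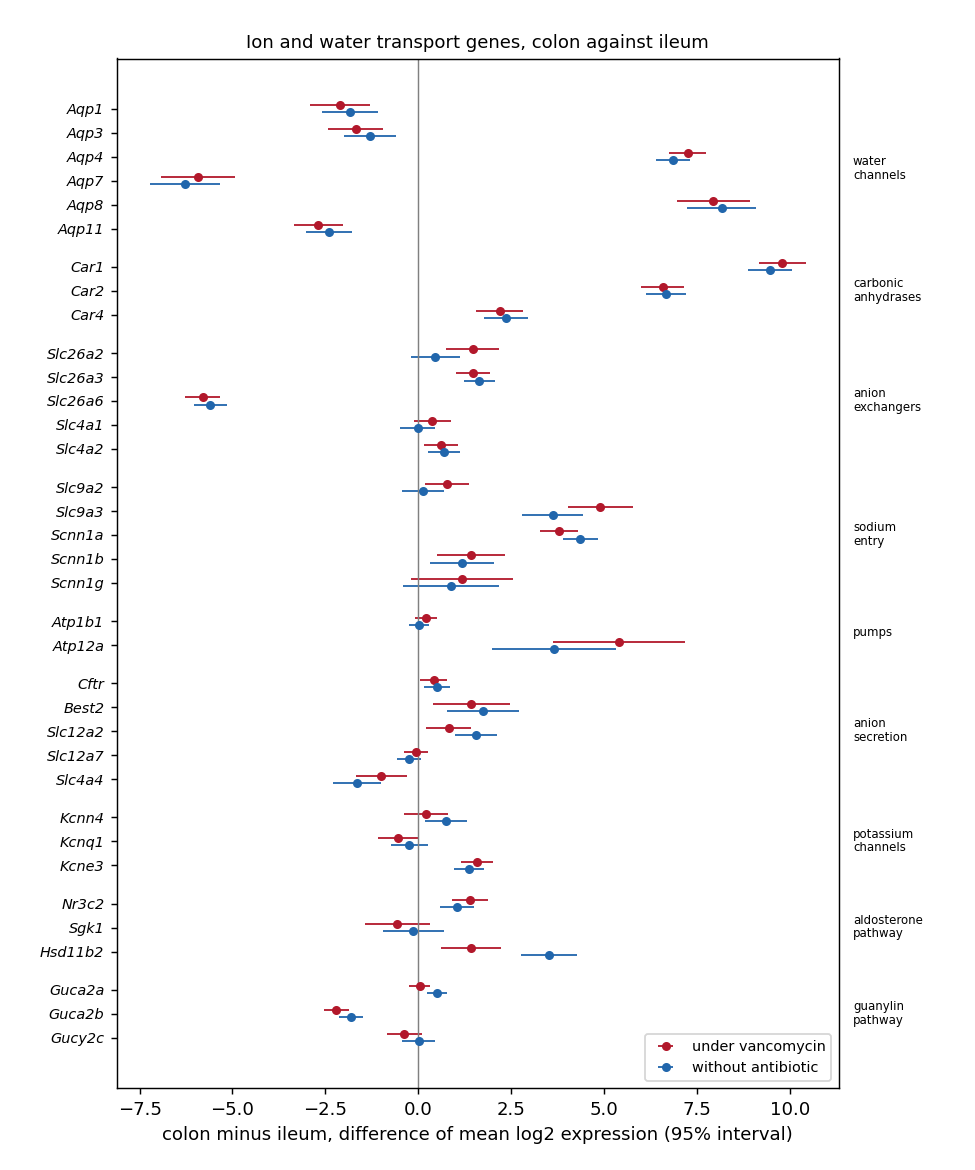
Colon minus ileum difference of mean log2 expression for each of the 35 genes, grouped by role, under vancomycin (red, upper of each pair) and without antibiotic (blue, lower), with 95% intervals from limma. Points right of the line are higher in colon; Car1, Aqp8, Aqp4 and Car2 lie furthest right and Aqp7 and Slc26a6 furthest left, and the red and blue points lie furthest apart at Hsd11b2 and Atp12a.

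Vancomycin moved none of the 35 genes past the threshold. In the colon 0 of 35 passed, against 0.0102% of all probe sets, which is 2 of 19572, both lower. In the ileum 0 of 35 passed, against 0.536% (0.0511% higher and 0.485% lower). The interaction, the colon's vancomycin difference minus the ileum's, passed for 0 of 35, against 0.189% (0.158% higher and 0.0307% lower). At an unadjusted p under 0.05 there were 6 genes in the colon, 17.1% against 15.9% of all probe sets. These were Atp12a, Nr3c2 and Slc4a1, higher, and Car1, Hsd11b2 and Kcnn4, lower, 3 each way, against 7.76% and 8.11% of all probe sets. In the ileum there were also 6, 17.1% against 10.1%, namely 1 higher (Hsd11b2, against 4.97%) and 5 lower (Aqp4, Car1, Kcne3, Kcnn4 and Slc9a3, against 5.13%). The interaction had 4, 11.4% against 8.01%, with Slc26a2 and Slc9a3 positive (3.89% of all probe sets were) and Guca2a and Hsd11b2 negative (4.12%). Vancomycin and untreated values did not overlap for 6 genes in the colon, against 12.3% of all probe sets, 3 higher (6.72%) and 3 lower (5.57%). In the ileum these were also 6, against 16.9%, 2 higher (8.57%) and 4 lower (8.34%). The median difference was -0.09 in the colon, -0.09 for the interaction and 0.01 in the ileum, against 0.02, -0.004 and 0.02 over all probe sets. With arrays weighted by their quality, 1 gene passed in the colon (Kcnn4), 4 in the ileum (Aqp3, Car1, Hsd11b2 and Slc9a3) and 1 for the interaction (Hsd11b2), against 0.194%, 5.17% and 0.976% of all probe sets.

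**Figure D2:**
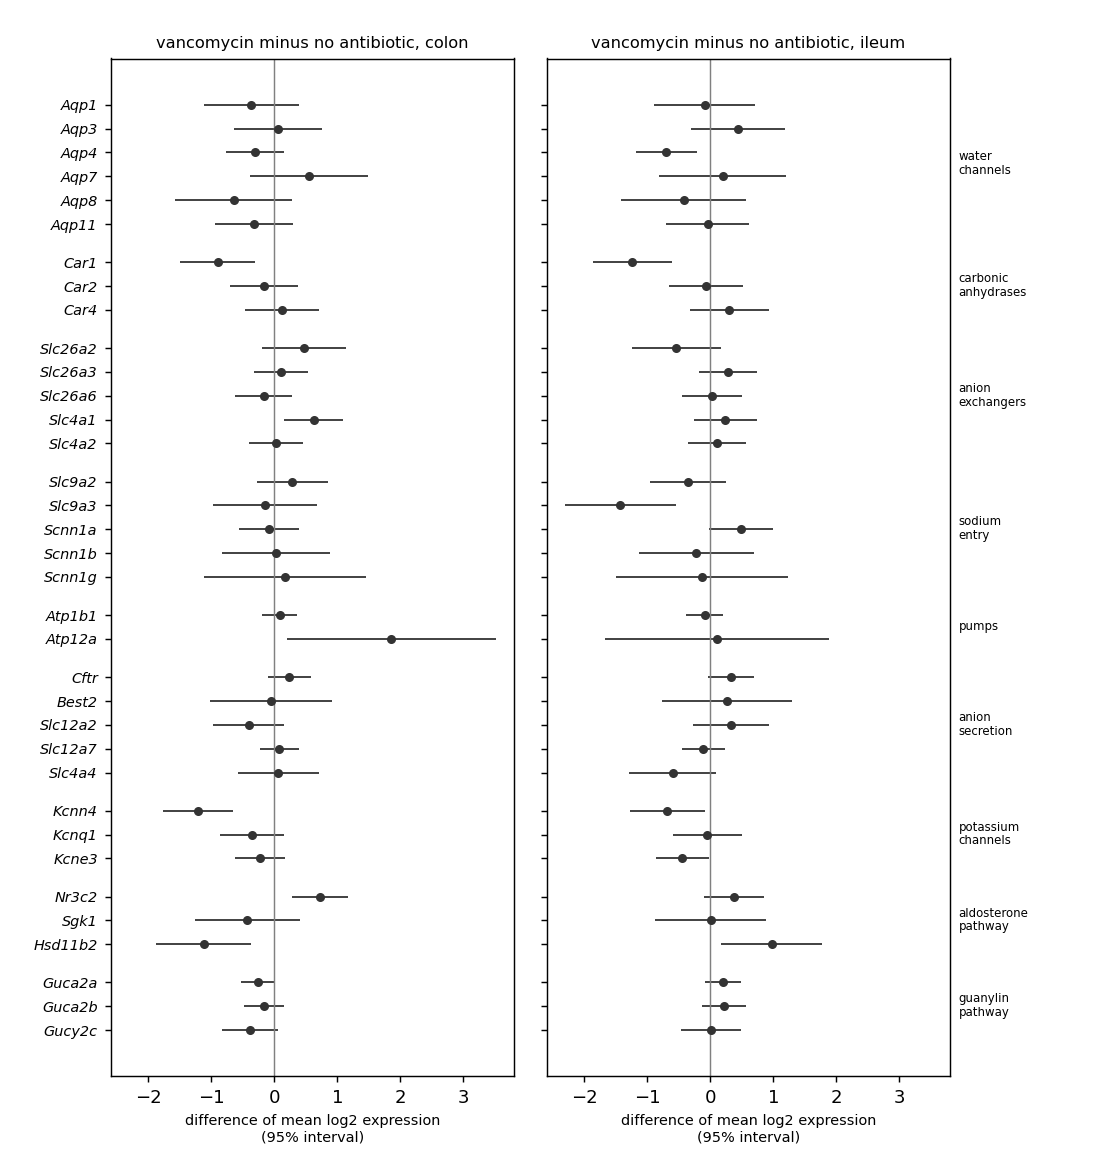
Vancomycin minus no antibiotic difference of mean log2 expression for each of the 35 genes in colon (left) and ileum (right), with 95% intervals from limma that are not adjusted for the number of genes. Most intervals cross 0; in colon those of Kcnn4, Hsd11b2, Car1, Nr3c2, Slc4a1 and Atp12a do not, and in ileum those of Slc9a3, Car1, Aqp4, Kcnn4, Kcne3 and Hsd11b2 do not, but none of these passed after adjustment.

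All 6 aquaporins differed between the tissues, 2 towards colon and 4 towards ileum. Aqp8, the water channel of the colonocyte, was at 15.78, 15.71, 15.70 and 15.33 in colons against 7.77, 7.58 and 7.05 in ilea, both without antibiotic and in the order of the array numbers (1, 2, 3 and 5 for colon, 1, 2 and 3 for ileum). Its difference of 8.16 ± 0.43 had an adjusted p of 7.72e-09. Aqp4, a water channel of the basolateral membrane, was at 14.56, 14.14, 14.72 and 14.76 in these colons against 7.36, 7.95 and 7.75 in these ilea, a difference of 6.86 ± 0.21 (adjusted p 2.81e-11). For both genes every colon value lay far above every ileum value. With vancomycin Aqp8 was at 13.61, 15.27 and 16.07 in colons (arrays 11, 13 and 14) against 6.65, 6.83 and 7.65 in ilea, and Aqp4 at 14.53, 14.08 and 14.10 in colons. The reverse held for Aqp7, which passes glycerol as well as water and is known from adipocytes, at 7.55, 6.77, 7.53 and 7.16 in colons against 13.22, 13.41 and 13.98 in ilea. That is a difference of -6.28 ± 0.44 (adjusted p 1.42e-07), with no value near the other tissue's. The vancomycin colons held it at 7.74, 7.79 and 7.88. The mean of the 6 measured adipocyte markers was also lower in these colons (7.83 to 9.08) than in these ilea (10.76 to 11.21). Among vancomycin ilea Aqp7 was at 12.20, 14.43 and 14.57 and the adipocyte mean at 11.97, 10.53 and 12.06, and the part of these cells in the Aqp7 values was not tested.

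Of the other water channels, Aqp11, an intracellular aquaporin, was at 12.13, 11.87, 11.46 and 11.97 in colons without antibiotic against 14.28, 14.31 and 14.22 in ilea without antibiotic. The 3 ilea lay close together above every colon, and the difference was -2.41 ± 0.29 (adjusted p 2.96e-05). With vancomycin Aqp11 was at 12.32, 11.55 and 10.75 in colons against 13.90, 14.23 and 14.56 in ilea. Aqp1, found in small vessels and red cells, was at 9.74, 9.25, 9.69 and 10.60 in colons against 11.12, 12.32 and 11.50 in ilea. The groups did not overlap, and the difference was -1.83 ± 0.35 (adjusted p 0.00172). The mean of 9 of 10 endothelial markers was 7.67 to 8.22 in these colons against 7.26 to 7.35 in these ilea, and the part of these cells in the Aqp1 values was not tested. Vancomycin colons had Aqp1 at 10.07, 8.95 and 9.35, against 11.12, 11.83 and 11.72 in vancomycin ilea. Aqp3, another glycerol channel, averaged 7.69 ± 0.21 in colons (SD, n = 4) and 9.00 ± 0.23 in ilea (SD, n = 3), a difference of -1.30 ± 0.33 (adjusted p 0.0101). Its call was lost without ileum array 2 (adjusted p 0.0522). Aqp7 and Aqp3 are neighbours on chromosome 4 with no coding gene between them.

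Vancomycin did not move the aquaporins past the threshold in either tissue. Aqp4 in the ileum was at 7.11, 7.28 and 6.58 with vancomycin against 7.36, 7.95 and 7.75 without antibiotic. Every vancomycin value lay below every untreated one, and the difference was -0.70 ± 0.23 (adjusted p 0.287), or -0.76 without array 11, at levels far under those of the colon. Aqp3 in the ileum was at 8.28, 10.01 and 10.01 with vancomycin against 8.87, 9.26 and 8.86 without antibiotic. Array 11 lay below the untreated ilea and arrays 13 and 14 above them, and the difference was 0.44 ± 0.35 (adjusted p 0.696). Without array 11 Aqp3 was higher by 1.01 with vancomycin (adjusted p 0.0137). Its arrays are given outside the naming rule, chosen after its values were seen. In the colon Aqp7 had a difference of 0.55 ± 0.44, with vancomycin values of 7.74 to 7.88 just above the 6.77 to 7.55 of untreated colons, and Aqp8 one of -0.65 ± 0.43, where array 11 was lowest, turning to 0.04 without it. The Aqp8 promoter is printed because this gene had one of the largest differences between the tissues. It is the 250 bases before the RefSeq start at chr7:123462044-123462293 (GRCm38.p6, plus strand), with the only match to a searched motif in capitals, the caudal homeobox site TTTATT starting 6 bases before the start. TTTATT, on either strand, occurs in 19.6% of all 32851 promoter windows of 300 bases and in 2 of the 22 members that have a window.
Aqp8: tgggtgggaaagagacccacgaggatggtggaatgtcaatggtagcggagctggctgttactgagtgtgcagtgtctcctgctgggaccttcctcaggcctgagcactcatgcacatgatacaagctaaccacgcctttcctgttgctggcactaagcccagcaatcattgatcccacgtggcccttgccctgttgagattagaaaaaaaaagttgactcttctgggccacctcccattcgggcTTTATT

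The 3 carbonic anhydrases, which interconvert carbon dioxide and bicarbonate, were all higher in colon. Car1, a cytosolic form of colonocytes and red cells, was at 17.30, 17.42, 16.99 and 17.04 in colons against 7.97, 8.38 and 6.84 in ilea without antibiotic. This difference of 9.46 ± 0.27 (adjusted p 1.68e-11) was the largest towards colon of all 19572 probe sets. The largest towards ileum was -11.25. Car2, the fast cytosolic form, was at 14.45, 14.27, 14.24 and 14.43 in colons against 7.44, 7.95 and 7.65 in ilea, a difference of 6.67 ± 0.25 (adjusted p 2.47e-10). Again no array of one tissue came near the other tissue. With vancomycin Car2 was at 14.37, 14.15 and 14.04 in colons against 8.37, 7.52 and 6.94 in ilea. Car4, anchored in the apical membrane, averaged 15.94 ± 0.18 in colons (SD, n = 4) and 13.58 ± 0.41 in ilea (SD, n = 3), a difference of 2.36 ± 0.27 (adjusted p 2.17e-05). Car1 and Car2 lie on chromosome 3 with Car3, whose difference was -3.67 ± 0.56 in the opposite direction (adjusted p 0.000251), between them.

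Car1 had one of the largest vancomycin differences in each tissue. In colon it was at 16.52, 16.05 and 16.29 with vancomycin against 17.30, 17.42, 16.99 and 17.04 without antibiotic. The groups did not overlap, and the difference was -0.90 ± 0.27 (adjusted p 0.174). In ileum it was at 6.48, 6.40 and 6.60 with vancomycin against 7.97, 8.38 and 6.84 without antibiotic. Here too no values overlapped, although untreated array 3 came close to the treated ones, and the difference was -1.24 ± 0.29 (adjusted p 0.0965). It was -1.68 without that array (adjusted p 0.00402) and -1.23 without vancomycin array 11 (adjusted p 0.140). The interaction was 0.34 ± 0.40 (adjusted p 0.888). Car2 differed by -0.16 ± 0.25 in colon and -0.07 ± 0.27 in ileum, and Car4 by 0.12 ± 0.27 and 0.30 ± 0.29.

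Among the anion exchangers the tissue preference depended on the member. Slc26a6, an apical exchanger of chloride for bicarbonate or oxalate, was at 8.13, 8.26, 8.31 and 8.28 in colons against 13.84, 13.68 and 14.01 in ilea without antibiotic. The groups were tight and far apart, with a difference of -5.60 ± 0.21 (adjusted p 2.01e-10). With vancomycin Slc26a6 was at 8.09, 8.19 and 7.94 in colons against 13.21, 14.15 and 14.26 in ilea. Its relative Slc26a3, the main chloride and bicarbonate exchanger of the colon, was higher there by 1.65 ± 0.20 (adjusted p 3.45e-05), with means of 16.42 ± 0.26 in colons (SD, n = 4) and 14.77 ± 0.12 in ilea (SD, n = 3). The basolateral exchanger Slc4a2 was higher in colon by 0.69 ± 0.20 (adjusted p 0.0259), a call held in 11 of 16 alternative settings and lost without untreated colon 1 or 3 or any 1 of the untreated ilea (adjusted p 0.0595 to 0.0835). Slc26a2, a sulfate transporter, differed by 0.46 ± 0.31 without antibiotic (adjusted p 0.364) and by 1.47 ± 0.33 under vancomycin (adjusted p 0.00699). Slc4a1, the band 3 exchanger of red cells and the kidney, differed by -0.01 ± 0.22 (95% interval -0.48 to 0.45).

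The Slc26a6 promoter is shown as the counterpart of Aqp8, a gene with the opposite tissue preference that also holds the TTTATT site. The 250 bases at chr9:108853793-108854042 (GRCm38.p6, plus strand) carry it in capitals, starting 75 bases before the RefSeq start. The other motifs searched, on both strands, were the other caudal site TTTATG, the steroid receptor hexamer AGAACA, the complete steroid receptor element (AGAACA, 3 bases of any kind, TGTTCT) and the Hnf4 site, and none of them was found in this window.
Slc26a6: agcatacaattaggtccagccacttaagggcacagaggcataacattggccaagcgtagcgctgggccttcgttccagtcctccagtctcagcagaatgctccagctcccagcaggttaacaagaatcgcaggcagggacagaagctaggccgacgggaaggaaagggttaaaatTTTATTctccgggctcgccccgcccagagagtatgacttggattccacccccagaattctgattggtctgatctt

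Slc4a1 was the anion exchanger with the smallest p under vancomycin. In colon it was at 10.05, 9.90 and 10.31 with vancomycin against 9.51, 9.76, 9.81 and 8.76 without antibiotic. All treated values lay just above all untreated ones, and the difference was 0.63 ± 0.22 (adjusted p 0.202). The mean of 5 of 12 erythroid markers was 6.56 to 6.75 in these treated colons and 6.43 to 6.81 in the untreated ones, ranges that overlap, and no haemoglobin gene was among the 5. In ileum Slc4a1 was at 9.85, 9.57 and 9.71 with vancomycin against 9.48, 9.61 and 9.33 without antibiotic, and the difference without array 11 was 0.17. Slc26a2 differed by 0.47 ± 0.31 in colon and -0.54 ± 0.33 in ileum (-0.15 without array 11), an interaction of 1.01 ± 0.45 (adjusted p 0.607). The interaction was 0.62 without ileum array 11, where Slc26a2 was at 12.78 against 13.73 and 14.15 in the other vancomycin ilea. Differences of Slc26a3, Slc26a6 and Slc4a2 lay between -0.17 and 0.28 in both tissues.

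Of the 5 sodium entry genes, 2 were higher in colon without antibiotic and 0 lower. Scnn1a, the alpha subunit of the epithelial sodium channel, was at 13.09, 13.58, 13.31 and 13 in colons against 8.80, 8.90 and 8.96 in ilea without antibiotic. The ilea lay close together far below the colons, and the difference was 4.36 ± 0.22 (adjusted p 5.89e-09). Slc9a3, the sodium and proton exchanger NHE3 that absorbs sodium, was higher in colon by 3.62 ± 0.38 (adjusted p 9.47e-06), and by 4.90 ± 0.41 under vancomycin. The exchanger Slc9a2 differed by 0.13 ± 0.26 without antibiotic (adjusted p 0.805). The channel's beta subunit Scnn1b was higher by 1.18 ± 0.40 (adjusted p 0.0506) without antibiotic and 1.43 ± 0.42 under vancomycin (adjusted p 0.0348), the second call lost without vancomycin colon 13 or 14 or vancomycin ileum 13 or 14 (adjusted p 0.0739 to 0.143). Without untreated colon 3 the first passed (1.47, adjusted p 0.0149). Its gamma subunit Scnn1g differed by 0.88 ± 0.60 (adjusted p 0.367) and 1.19 ± 0.64 (adjusted p 0.262). Scnn1b and Scnn1g lie side by side on chromosome 7 with no coding gene between them.

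For Scnn1b and Scnn1g single colons stood high, and their arrays are given although they fall outside the naming rule. Scnn1b was at 7.75, 8.82 and 8.09 in vancomycin colons against 8.11, 9.50, 7.31 and 7.85 in colons without antibiotic. For Scnn1g these values were 5.83, 7.81 and 6.31 with vancomycin against 5.63, 8.57, 5.98 and 5.74 without. Array 13 of the treated and array 2 of the untreated colons were the highest of their groups for both subunits, as they were for Best2 (8.96 and 9.03). The same arrays were also the highest of their groups for Slc4a4, Kcne3 and Hsd11b2. They were the lowest for Aqp1, Aqp4, Slc4a2, Slc9a2, Slc9a3, Slc12a2 and Slc12a7. The share of all probe sets at which these arrays are highest or lowest together was not computed. Of the 4 measured colon identity genes, homeobox genes of the posterior gut, these arrays were the highest of their groups for Hoxd13, at 8.03 with vancomycin and 8.46 without, against 5.23 to 5.97 in the other 5 colons, and for Hoxb13, at 13.19 and 13.80. For Hoxb9 they were the lowest of their groups, at 10.14 and 10.23, and for Hoxd12 array 13 was the lowest (6.70) and array 2 the highest (6.90). The mean of the 4 was 8.86, 9.52 and 9.20 in vancomycin colons against 8.51, 9.85, 8.85 and 8.80 in colons without antibiotic. The labels give no position along the colon, and its part in these values was not tested. Without array 2 the tissue difference of Scnn1b was 0.74 (adjusted p 0.0847) and that of Scnn1g 0.19. Under vancomycin minus no antibiotic in colon, Scnn1b differed by 0.03 ± 0.40 and Scnn1g by 0.17 ± 0.60, turning to -0.27 and -0.41 without array 13 and to 0.46 and 0.87 without array 2.

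**Figure D3:**
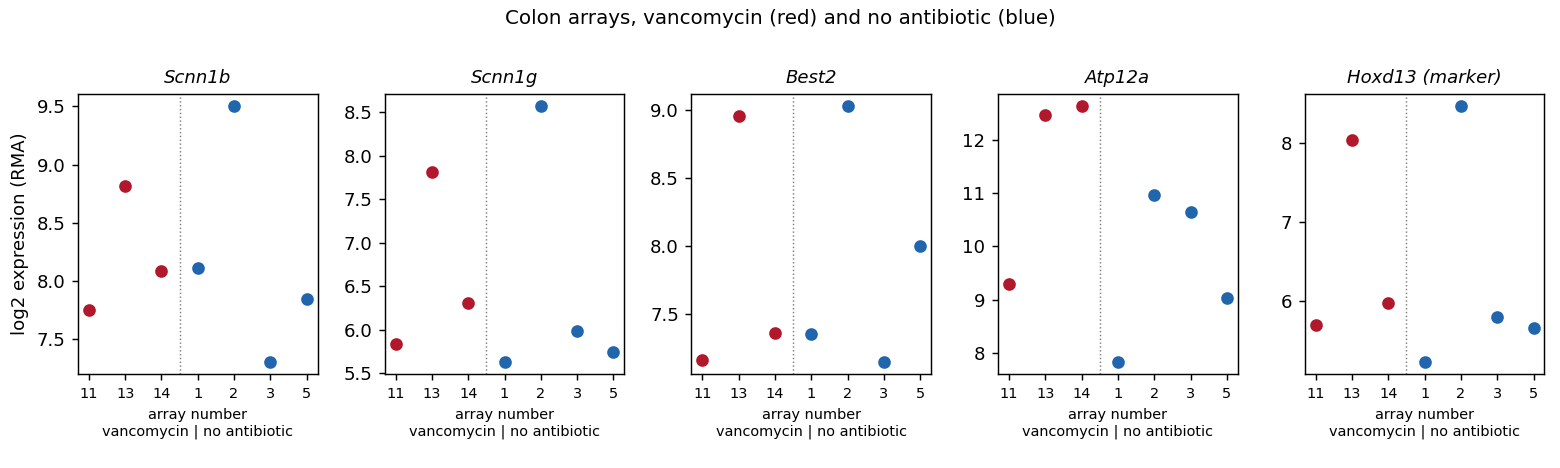
Log2 expression of Scnn1b, Scnn1g, Best2, Atp12a and the positional marker Hoxd13 in each colon array, vancomycin arrays 11, 13 and 14 (red) left of no-antibiotic arrays 1, 2, 3 and 5 (blue). Arrays 13 and 2 are the highest of their groups in Scnn1b, Scnn1g, Best2 and Hoxd13, and 13 and 14 stand high for Atp12a.

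Slc9a3, Car1 and Hsd11b2 had the largest vancomycin differences of the 35 genes in the ileum, with and without array 11. Slc9a3 was at 8.80, 9.96 and 9.93 with vancomycin against 11.01, 11.45 and 10.52 without antibiotic. All 3 treated ilea lay below all untreated ones, array 11 furthest, and the difference was -1.43 ± 0.41 (adjusted p 0.192). It was -1.05 without array 11 (adjusted p 0.347), where those of Hsd11b2 and Car1 were larger. In the colon Slc9a3 was at 14.50, 13.62 and 15.27 with vancomycin against 14.45, 14.09, 14.90 and 15.00 without antibiotic, a difference of -0.15 ± 0.38 between overlapping groups, and the interaction was 1.28 ± 0.56 (adjusted p 0.586), or 0.90 without ileum array 11. Scnn1a in the ileum was at 9.38, 9.42 and 9.30 with vancomycin against 8.80, 8.90 and 8.96 without antibiotic. The groups were tight and did not overlap, and the difference was 0.48 ± 0.24 (adjusted p 0.517), 0.47 without array 11. In the colon Scnn1a differed by -0.09 ± 0.22, with treated values of 12.68, 12.97 and 13.81 around the untreated ones.

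The 2 pump genes contrasted. Atp1b1, the beta subunit of the basolateral sodium pump that powers the rest, averaged 16.41 ± 0.09 in colons (SD, n = 4) and 16.38 ± 0.08 in ilea (SD, n = 3) without antibiotic, a difference of 0.03 ± 0.13 (95% interval -0.25 to 0.30). Its vancomycin differences were 0.08 ± 0.13 in colon and -0.09 ± 0.14 in ileum. Atp12a, the potassium-absorbing proton pump of the distal colon, had the widest spread of the 35 genes among colons, with an SD of 1.88 with vancomycin and 1.47 without antibiotic. It was at 9.30, 12.48 and 12.64 in vancomycin colons against 7.83, 10.97, 10.65 and 9.02 in colons without antibiotic. Treated arrays 13 and 14 lay above every untreated colon and array 11 within their range, and the difference was 1.86 ± 0.77 (adjusted p 0.266). Without array 11 it was 2.94 (adjusted p 0.0567), and without untreated array 1 it was 1.26. In ileum Atp12a was at 5.77, 5.98 and 6.48 with vancomycin against 5.90, 6.09 and 5.92 without antibiotic. Colon was higher by 3.65 ± 0.77 without antibiotic (adjusted p 0.00350) and 5.40 ± 0.83 under vancomycin (adjusted p 0.00038). The interaction was 1.75 ± 1.13 (adjusted p 0.744).

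Of the anion secretion genes, 3 were higher in colon and 1 lower without antibiotic. Slc12a2, the cotransporter that loads chloride into secreting cells, was higher by 1.55 ± 0.26 (adjusted p 0.00066), and Best2, an anion channel of colonic goblet cells, by 1.75 ± 0.45 (adjusted p 0.0123, and 0.0614 without untreated ileum 2). Cftr, the apical chloride and bicarbonate channel, was higher by 0.50 ± 0.16 (adjusted p 0.0430), a call held in 8 of 16 alternative settings. It was lost without untreated colon 1, 3 or 5 or any 1 of the untreated ilea (adjusted p 0.0568 to 0.211), with median centring (adjusted p 0.104) and with a fixed replicate block (adjusted p 0.124). Slc4a4, which brings bicarbonate in from the blood side, differed by -1.66 ± 0.30 (adjusted p 0.00115). The potassium chloride cotransporter Slc12a7 differed by -0.25 ± 0.15 (adjusted p 0.279). Under vancomycin 0 of the 5 passed between the tissues, with differences of 0.82 ± 0.28 for Slc12a2, 1.43 ± 0.48 for Best2, 0.41 ± 0.17 for Cftr and -0.99 ± 0.32 for Slc4a4. The interaction that compares these with the untreated values passed for none, and its smallest adjusted p in this group was 0.681, at Slc12a2.

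Vancomycin did not move the secretion genes past the threshold in either tissue. Slc12a2 differed by -0.40 ± 0.26 in colon and 0.32 ± 0.28 in ileum, an interaction of -0.73 ± 0.39 (adjusted p 0.681). Cftr in the ileum was at 13.24, 13.70 and 13.67 with vancomycin against 12.93, 13.36 and 13.34 without antibiotic. Arrays 13 and 14 lay above the untreated range and array 11 within it, and the difference was 0.33 ± 0.17 (adjusted p 0.545), 0.48 without array 11. In the colon it was at 13.88, 13.98 and 13.98 with vancomycin against 13.64, 13.53, 13.68 and 13.98 without antibiotic, a difference of 0.24 ± 0.16 (adjusted p 0.489). Slc4a4 in the ileum averaged 12.21 ± 0.14 with vancomycin and 12.81 ± 0.31 without antibiotic (SD, n = 3 each), groups that did not overlap, with a difference of -0.60 ± 0.32 (adjusted p 0.548), -0.53 without array 11. Best2 in the colon differed by -0.06 ± 0.45. The mean of 8 goblet markers was 15.61, 15.52 and 14.75 in vancomycin colons against 16.22, 15.95, 15.97 and 16.16 in colons without antibiotic. All 8 had a lower mean with vancomycin, with a median difference of -0.67, and 0 of 8 passed the threshold, while 8 of 8 had an unadjusted p under 0.05, against 15.9% of all probe sets. The mean of 12 epithelial markers was 14.45 to 14.50 in these treated colons and 14.64 to 14.72 in the untreated ones. The part of these cells in the colon differences of any gene here was not tested.

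The 3 potassium channel genes had lower means with vancomycin in both tissues. Kcnn4, the calcium-activated potassium channel that sustains chloride secretion, had the smallest p of the 35 genes in colon. It was at 9.93, 9.55 and 9.44 with vancomycin against 10.93, 10.84, 10.52 and 11.14 without antibiotic. All treated colons lay clearly below all untreated ones, and the difference was -1.22 ± 0.26, ranked 70 of 19572 by p, with an adjusted p of 0.0968. It passed without untreated array 3 (-1.33, adjusted p 0.0423) and with array weights (-1.24, adjusted p 0.0423), and its lowest and highest values over 15 alternative settings were -1.36 and -1.12. In ileum Kcnn4 was at 10.03, 9.56 and 8.68 with vancomycin against 9.91, 10.25 and 10.17 without antibiotic. Array 14 was far below the others and array 11 within the untreated range, and the difference was -0.69 ± 0.28 (adjusted p 0.419), -0.99 without array 11. The interaction was -0.53 ± 0.38 (adjusted p 0.771), and -0.23 without ileum array 11.

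Kcne3, the subunit that keeps the Kcnq1 channel open in secreting cells, was higher in colon by 1.36 ± 0.18 without antibiotic (adjusted p 9.59e-05). In the ileum it was at 13.37, 14.18 and 13.85 with vancomycin against 14.18, 14.41 and 14.14 without antibiotic. Array 11 was lowest and array 13 within the untreated range, and the difference was -0.44 ± 0.20 (adjusted p 0.476), -0.23 without array 11. In the colon it was at 15.34, 15.50 and 15.31 with vancomycin against 15.64, 15.86, 15.30 and 15.63 without antibiotic, a difference of -0.22 ± 0.18 (adjusted p 0.579). Kcnq1 itself differed by -0.24 ± 0.24 between the tissues, by -0.36 ± 0.24 with vancomycin in colon and by -0.05 ± 0.25 in ileum. Kcnn4 was 0.75 ± 0.26 higher in colon without antibiotic (adjusted p 0.0567, and 0.0441 without untreated colon 3), with no overlap between the tissues, and 0.22 ± 0.28 under vancomycin (adjusted p 0.685).

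**Figure D4:**
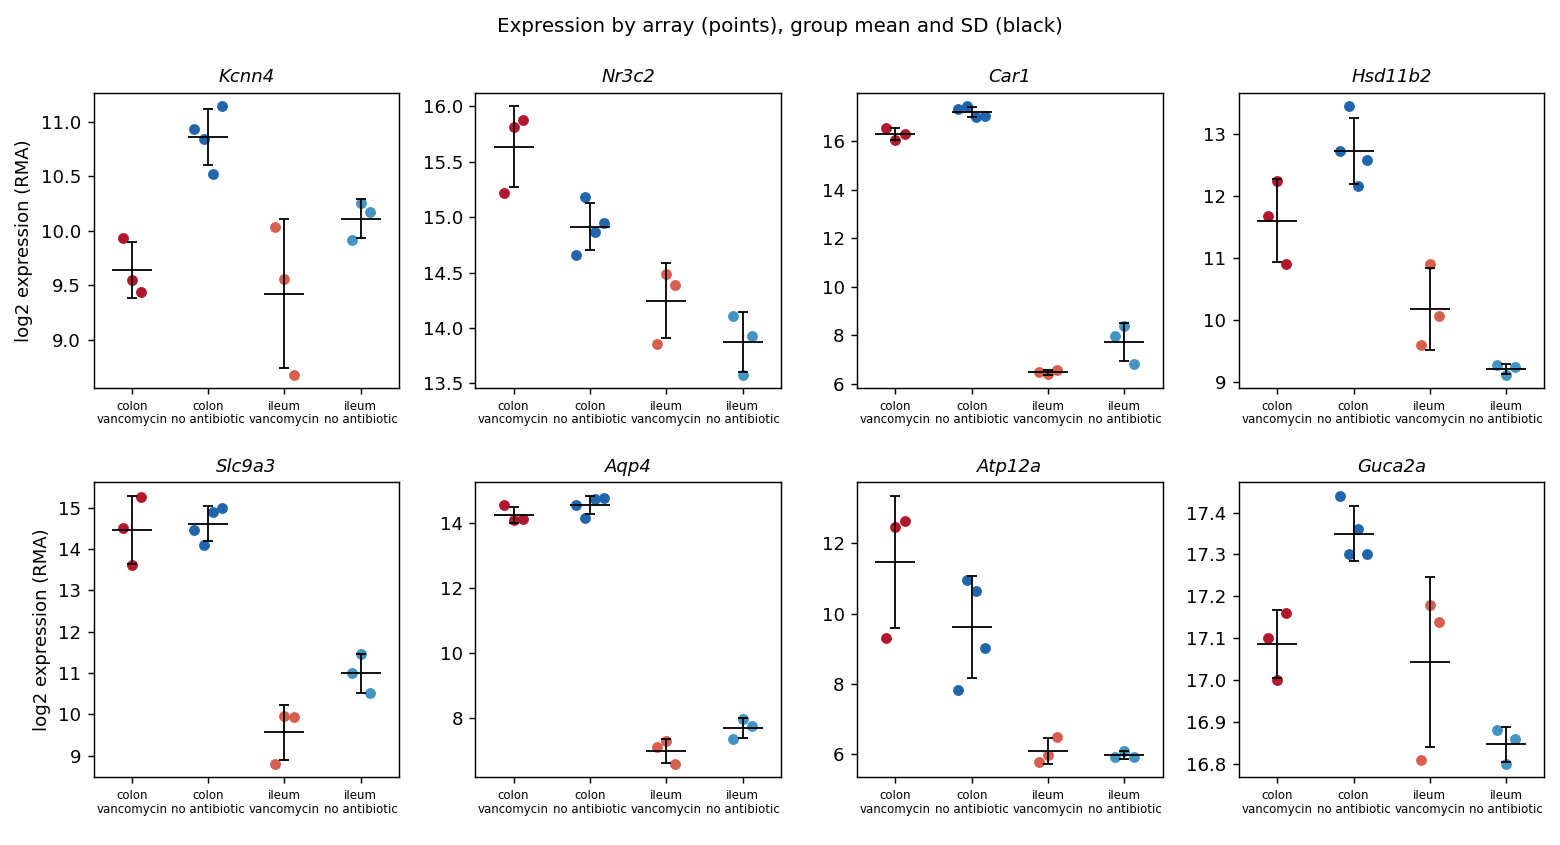
Log2 expression by array for Kcnn4, Nr3c2, Car1, Hsd11b2, Slc9a3, Aqp4, Atp12a and Guca2a in vancomycin colon (n = 3), untreated colon (n = 4), vancomycin ileum (n = 3) and untreated ileum (n = 3), from left to right, with each group's mean and SD in black. Each panel has its own scale. The mean of Hsd11b2 is lower with vancomycin in colon and higher in ileum, and those of Car1 and Kcnn4 are lower in both. None of these differences passed the threshold, and treated and untreated arrays overlap for Hsd11b2 in colon and Kcnn4 in ileum.

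Of the 3 aldosterone pathway genes, 2 were higher in colon. Nr3c2, the mineralocorticoid receptor, was higher there by 1.04 ± 0.21 without antibiotic (adjusted p 0.00234) and 1.39 ± 0.22 under vancomycin. Hsd11b2, the enzyme that inactivates glucocorticoids so that aldosterone can reach the receptor, was higher by 3.52 ± 0.35 without antibiotic (adjusted p 5.36e-06) and by 1.42 ± 0.38 under vancomycin (adjusted p 0.0185). The second call was lost without vancomycin colon 11 or 13 or vancomycin ileum 11 or 14 (adjusted p 0.0521 to 0.0892). Sgk1, the kinase that aldosterone induces to keep the sodium channel at the membrane, differed by -0.13 ± 0.38 (adjusted p 0.876).

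Hsd11b2 had the smallest p of the interaction among the 35 genes. In colon it was at 11.68, 12.24 and 10.90 with vancomycin against 12.73, 13.45, 12.16 and 12.58 without antibiotic. Treated array 13 passed the lowest untreated value, so the groups overlapped slightly, and the difference was -1.12 ± 0.35 (adjusted p 0.178). In ileum it was at 9.59, 10.90 and 10.06 with vancomycin against 9.27, 9.12 and 9.25 without antibiotic. All treated ilea lay above the tight untreated group, and the difference was 0.97 ± 0.38 (adjusted p 0.396), or 1.27 without array 11 (adjusted p 0.206). The difference between these 2 differences was -2.09 ± 0.51 (adjusted p 0.198), ranked 113 of 19572. It was -2.39 without ileum array 11 (adjusted p 0.0611) and passed with array weights (-2.68, adjusted p 0.0131) but in none of the other 20 alternatives.

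Nr3c2 in colon was at 15.22, 15.81 and 15.88 with vancomycin against 14.66, 15.18, 14.87 and 14.95 without antibiotic. The treated colons all lay above the untreated ones, the lowest of them only just, and the difference was 0.72 ± 0.21 (adjusted p 0.160). In ileum it was at 13.86, 14.49 and 14.39 with vancomycin against 14.11, 13.58 and 13.93 without antibiotic, overlapping groups with a difference of 0.37 ± 0.22 (adjusted p 0.594), or 0.57 without array 11 (adjusted p 0.374). Sgk1 was at 10.41, 10.77 and 10.57 in vancomycin colons against 11.28, 9.91, 11.43 and 11.42 in colons without antibiotic. Untreated array 2 was the lowest colon of all while the other 3 untreated colons were the highest. The difference was -0.43 ± 0.38 (adjusted p 0.619), and -0.79 without array 2 (adjusted p 0.303). In ileum it was 0.01 ± 0.41, and 0.34 without array 11 (adjusted p 0.849).

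The Sgk1 promoter is shown because it holds the complete steroid receptor element of this pathway, and it was chosen after its values were seen. The 250 bases at chr10:21993640-21993889 (GRCm38.p6, plus strand) lie before 1 of its 6 RefSeq starts. Capitals mark the element starting 189 bases before that start, which contains the hexamer AGAACA once on each strand, a further hexamer 242 bases before the start and TTTATG 200 bases before it. The complete element was found in 3 of 32851 windows (0.009%), the hexamer in 19.0%, TTTATG in 11.9% and the Hnf4 site in 0.475%. Among the 22 members with a window it was found in Sgk1 alone, the hexamer in 4 (Aqp7, Guca2a, Sgk1 and Slc26a3), TTTATG in 2 (Scnn1g and Sgk1) and the Hnf4 site in 0.
Sgk1: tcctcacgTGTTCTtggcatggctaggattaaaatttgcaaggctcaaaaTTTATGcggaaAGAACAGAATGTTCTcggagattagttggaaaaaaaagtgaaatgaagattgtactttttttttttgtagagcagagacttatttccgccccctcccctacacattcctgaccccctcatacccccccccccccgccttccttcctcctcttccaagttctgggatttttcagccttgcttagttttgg

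The 2 guanylin peptide genes differed between the tissues in opposite directions without antibiotic. Guca2b, uroguanylin, was at 15.32, 15.00, 14.71 and 15.15 in colons against 16.86, 16.82 and 16.92 in ilea without antibiotic. The ilea lay close together and well above every colon, and the difference was -1.82 ± 0.15 (adjusted p 7.3e-07). With vancomycin Guca2b was at 14.98, 14.88 and 14.78 in colons against 16.90, 17.16 and 17.19 in ilea. Guca2a, guanylin, was higher in colon by 0.50 ± 0.12 (adjusted p 0.00929), and by 0.04 ± 0.13 under vancomycin (adjusted p 0.883). Their receptor Gucy2c, a guanylate cyclase of the apical membrane, had a difference of 0.01 ± 0.21 (95% interval -0.43 to 0.45). The 2 peptide genes are neighbours on chromosome 4 with no coding gene between them.

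The promoters of these neighbours, whose tissue differences were opposite without antibiotic, are set side by side. Guca2a is read from chr4:119637482-119637731 on the plus strand and Guca2b from chr4:119658946-119659195 on the minus strand (GRCm38.p6), each the 250 bases before the RefSeq start. Capitals in Guca2a mark the hexamer AGAACA on the opposite strand, read as TGTTCT, 7 bases before the start, and the Guca2b window held none of the motifs searched.
Guca2a: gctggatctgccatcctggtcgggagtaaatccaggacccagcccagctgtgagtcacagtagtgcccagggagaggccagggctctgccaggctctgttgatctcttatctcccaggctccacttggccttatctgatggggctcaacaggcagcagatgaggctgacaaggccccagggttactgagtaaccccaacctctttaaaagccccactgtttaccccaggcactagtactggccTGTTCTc
Guca2b: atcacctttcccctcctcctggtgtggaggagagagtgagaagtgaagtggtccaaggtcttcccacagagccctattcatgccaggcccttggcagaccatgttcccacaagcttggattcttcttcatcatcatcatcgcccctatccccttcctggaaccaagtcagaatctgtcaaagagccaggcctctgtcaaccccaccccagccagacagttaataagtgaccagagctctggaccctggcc

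With vancomycin, the 3 guanylin genes had lower means in colon, none past the threshold. In ileum the means of Guca2a and Guca2b were higher and Gucy2c differed by 0.01 ± 0.22 (adjusted p 0.993), again none past the threshold. Guca2a in colon was at 17.10, 17.00 and 17.16 with vancomycin against 17.44, 17.30, 17.36 and 17.30 without antibiotic. The treated colons all lay below the untreated ones, on a probe set near the top of the scale, and the difference was -0.26 ± 0.12 (adjusted p 0.319). In ileum Guca2a was at 16.81, 17.18 and 17.14 with vancomycin against 16.88, 16.80 and 16.86 without antibiotic. Arrays 13 and 14 were higher than untreated ilea and array 11 was not, and the difference was 0.20 ± 0.13 (adjusted p 0.639), 0.31 without array 11. The interaction of -0.46 ± 0.18 had an adjusted p of 0.516, and was -0.58 without ileum array 11. Gucy2c in colon was at 13.87, 13.59 and 13.57 with vancomycin against 14.32, 13.84, 13.82 and 14.27 without antibiotic. Only treated array 11 reached the untreated range, and the difference was -0.39 ± 0.21 (adjusted p 0.369). In ileum Gucy2c was at 13.52, 14.33 and 14.33 with vancomycin against 13.91, 14.10 and 14.14 without antibiotic, where array 11 was lowest and arrays 13 and 14 highest, and without array 11 the difference was 0.28. Guca2b differed by -0.17 ± 0.15 in colon and 0.22 ± 0.16 in ileum.

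Array 11 of the vancomycin ilea carried many of the low values above. It was the lowest of its 3 arrays for 24 of the 35 genes (68.6%), against 39.4% of all probe sets, and the highest for 3 (8.57%, against 36.5%), Car2, Slc4a1 and Kcnn4. Its mean over 12 epithelial markers was 14.55, against 14.96 in array 13, 15.04 in array 14 and 15.05 to 15.13 in untreated ilea. The genes furthest below the untreated range in it were Slc9a3 (8.80), Aqp7 (12.20), Slc26a2 (12.78) and Slc9a2 (13.88). For Aqp7 and Slc9a2 the other vancomycin ilea lay above or inside the untreated range, and without array 11 their vancomycin differences were 0.96 (adjusted p 0.112) and 0.05, against 0.20 ± 0.47 and -0.35 ± 0.28 with it. For the genes given no such value above, the difference without array 11 lay between -0.45, at Car2, and 0.44, at Best2. The part of muscle and lymphoid tissue in this array's values was not tested.

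**Figure D5:**
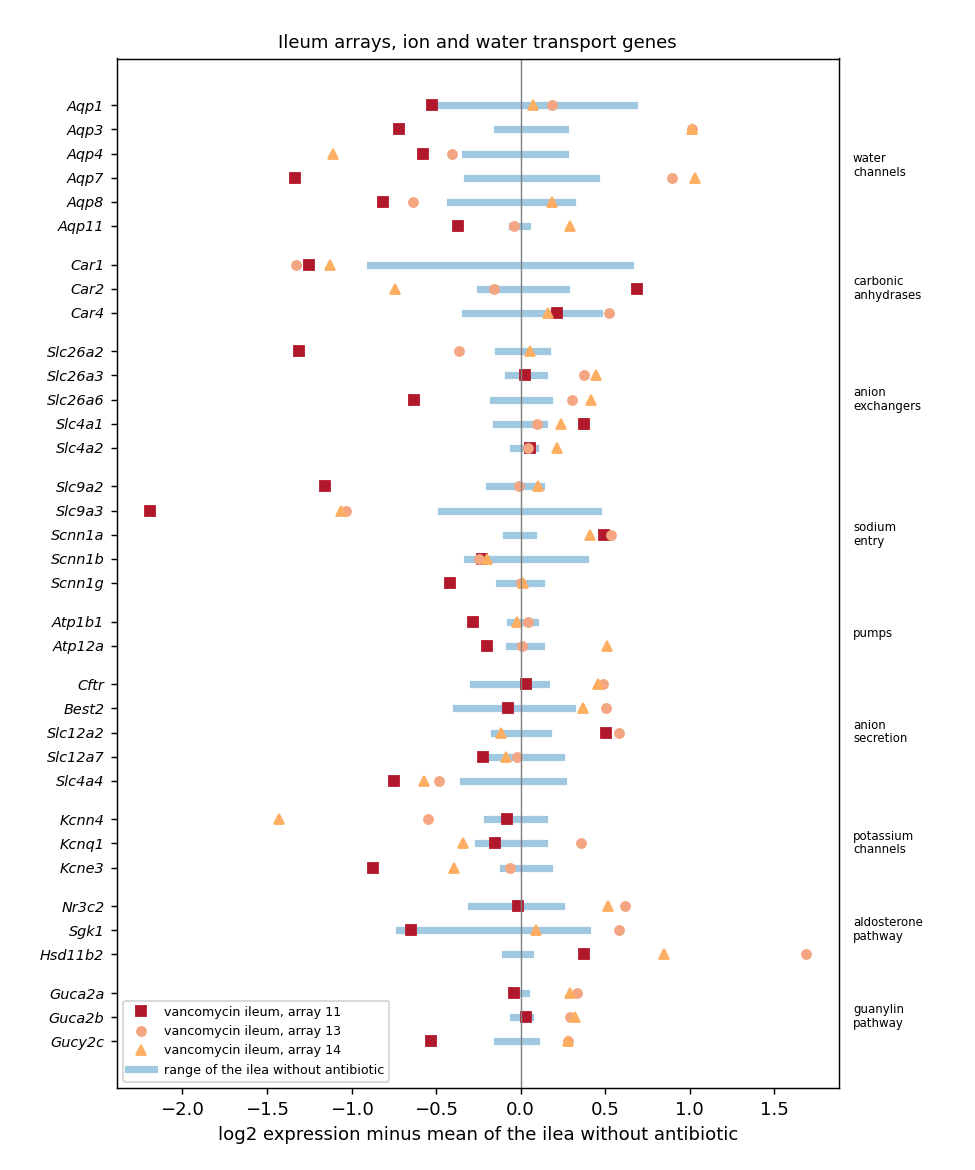
Each vancomycin ileum (array 11 squares, 13 circles, 14 triangles) as log2 expression minus the mean of the ilea without antibiotic, whose range is the pale bar, for the 35 genes. Array 11 lies left of the other 2 for most genes, with Slc9a3 furthest, while for Car1, Aqp4, Slc4a4 and Slc9a3 all 3 arrays lie left of the bar, and for Hsd11b2 and Scnn1a all 3 lie right of it.

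Other genes of the same families were read from 8 lists, of which 134 of 145 genes were measured. With vancomycin 0 of 134 passed in colon, 0 in ileum and 0 for the interaction, against 0.0102%, 0.536% and 0.189% of all probe sets, and 22, 21 and 20 had an unadjusted p under 0.05, against 15.9%, 10.1% and 8.01%. Between the tissues without antibiotic 29 were higher and 23 lower in colon, against 11% and 9.59%. The 6 other aquaporins held 1 call, Aqp12, and the 13 other carbonic anhydrases 2 higher, Car11 (1.55 ± 0.30) and Car7 (0.43 ± 0.14), and 5 lower, Car3 and Car5b (-2.05 ± 0.34) furthest. Of 19 other SLC9 and SLC26 genes and their scaffolds, 2 were higher and 4 lower in colon, the furthest being the scaffold genes Slc9a3r2 (1.86 ± 0.43), Slc9a3r1 (-2.21 ± 0.28) and Pdzk1 (-3.63 ± 0.60), which anchor exchangers such as NHE3, and the exchanger Slc9a5 (0.61 ± 0.17). Of 6 bicarbonate transporters 0 passed. With vancomycin in colon, Aqp9 differed by 0.30 ± 0.15, Aqp12 by -0.20 ± 0.15, Car11 by -0.61 ± 0.30, Slc4a5 by -0.35 ± 0.16, Slc4a8 by -0.49 ± 0.28, Slc9a8 by 0.45 ± 0.14 and Slc9a3r2 by -1.21 ± 0.43. In ileum, Aqp5 differed by 0.88 ± 0.36, Aqp6 by 0.31 ± 0.16, Car5b by 1.25 ± 0.36, Car14 by 0.50 ± 0.18, Slc4a9 by 0.47 ± 0.21, Pdzd3 by -0.42 ± 0.18 and Slc26a5 by 0.34 ± 0.22. These are the genes with the smallest p of each family, and none passed (smallest adjusted p 0.181 in colon and 0.204 in ileum).

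Regulators of the sodium channel and of aldosterone held 6 higher and 3 lower genes of 19 in colon without antibiotic. Of all probe sets 11% were higher and 9.59% lower, shares that also stand beside the tissue counts of the lists below. Tmprss2, a membrane protease, was higher by 2.85 ± 0.20 and Wnk4, a kinase that controls salt transport, by 2.66 ± 0.38, while Usp2, a deubiquitinase, differed by -3.30 ± 0.33 and Hsd11b1, which regenerates glucocorticoid, by -2.02 ± 0.32. With vancomycin Wnk4 had a difference of -1.25 ± 0.38 in colon (adjusted p 0.171), Fkbp5, a glucocorticoid-induced gene, 0.67 ± 0.24 in colon (adjusted p 0.210), and Usp2 -1.37 ± 0.35 in ileum (adjusted p 0.137). Hsd11b1 in the ileum differed by 1.05 ± 0.34 (adjusted p 0.283). Of 11 sodium pump subunits and FXYD regulators, 3 were higher in colon, Fxyd3 by 2.24 ± 0.29 and Fxyd6 by 1.27 ± 0.33. With vancomycin in colon Fxyd4, a pump regulator of the distal colon and kidney, differed by 1.92 ± 0.71 (adjusted p 0.227) and Fxyd3 by -0.93 ± 0.29 (adjusted p 0.180), and in ileum Fxyd7 by 0.32 ± 0.13 and Fxyd1 by 0.95 ± 0.46. Fxyd4 was at 10.91, 13.5 and 11.83 in vancomycin colons against 9.12, 12.56, 9.92 and 9.05 in colons without antibiotic. Arrays 13 and 2 were its highest, as for Scnn1b and Scnn1g, and the part of position along the colon was not tested. Of 36 other chloride and potassium channel and cotransporter genes 7 were higher and 7 lower in colon, Ano1, a calcium-activated chloride channel, by 4.29 ± 0.40 and Kcnk1 by 1.33 ± 0.15, while Clca4b differed by -5.66 ± 0.60 and Clca4a by -1.93 ± 0.56. The smallest adjusted p with vancomycin among these 134 genes was that of Kcnk1, a potassium channel, in colon (-0.85 ± 0.15, adjusted p 0.0968). In the same list Slc12a8 differed by -1.86 ± 0.46 in colon (adjusted p 0.125), and in ileum Kcnk5 by -0.59 ± 0.20 and Best3 by 0.54 ± 0.18.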

How the data were processed

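Total RNA from colon and ileum was hybridised to 13 1-colour Affymetrix arrays. The deposited values are log2 expression values that the authors made before deposit; Affymetrix Expression Console 1.4.1.46 and RMA are named, per the submitters' processing notes, without their roles. Of 28846 probe sets, 9274 without a single gene symbol were left out and 19572 were tested, so that adjusted p-values (Benjamini-Hochberg) run over all of them. Group means were fitted to the 13 arrays with limma 3.58.1 in R 4.3.3 (lmFit, eBayes), and 5 contrasts were taken: vancomycin against no antibiotic in each tissue, the difference between these, and colon against ileum with and without vancomycin. The script was tested on simulated data.

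The 35 genes, the other gene lists and the marker lists were chosen with earlier results of these data known. Values of every array are given for the 8 members with the smallest p in either vancomycin contrast, any member past the threshold in a vancomycin contrast, and the 5 members highest and the 5 lowest in colon against ileum. From each other list, genes past the threshold with vancomycin, the 2 with the smallest p in each tissue and the 2 highest and 2 lowest between tissues past the threshold are named. Alternatives were groups compared alone, array weights, an intensity trend with a robust prior, quantile normalization, median centring, leaving out the dimmest 33.3% of probe sets, 1 probe set per gene, the replicate number as a block, and each array left out in turn. Same-numbered colon and ileum arrays were checked for pairing: their deviations correlated at 0.236, 0.176 and 0.107 with vancomycin and 0.075, 0.03 and -0.016 without, so 3 of 6 were over 0.1 and no pairs were taken. Promoters are the 250 bases before RefSeq gene starts (GRCm38.p6), found for 22 of the 35 genes and searched on both strands in windows of 300 bases.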

Additional observations from a re-analysis of the deposited data

Results flagged for a closer look

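In the colons without antibiotic, array 2 was marked as an outlier of its group in 3 of the 35 genes tested. Its gap to the nearest array, as a share of the group's range, exceeded the 95% critical value of Dixon's test for 4 samples. Scnn1g was at 8.57 in it (share 0.881), Slc26a3 at 16.8 (0.852) and Sgk1 at 9.91 (0.901), the first 2 above and Sgk1 below the other arrays. Chance alone gives such a mark in about 5% of groups. The share of all probe sets with such a mark was not computed, so the count is not a result about these genes. The vancomycin groups and the ilea have 3 arrays each and were not examined in this way.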

How the results depend on the processing

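Between the tissues, 20 to 24 genes passed without antibiotic and 19 to 20 under vancomycin when single arrays were left out, and no gene past a threshold changed direction in any alternative. For vancomycin the count of 0 became 1 in colon, 4 in ileum and 1 for the interaction with array weights, which gave vancomycin ileum 11 a weight of 0.302, 13 one of 3.79 and 14 one of 0.644. It ranged from 0 to 1 in colon and from 0 to 1 in ileum, and stayed at 0 for the interaction, when single arrays were left out. The gains were Kcnn4 in colon without untreated array 3, Aqp3 in ileum without vancomycin array 11 and Car1 in ileum without untreated array 3. With a random replicate block 0 genes passed in colon, ileum or interaction, and 26 and 22 passed between the tissues without antibiotic and under vancomycin; with a fixed replicate block the interaction had 0 and the tissues 23 and 22. Over all probe sets, the 2 passing in colon became 0 with the colons compared alone, 38 with array weights, 0 with median centring, 1 without the dimmest probe sets and 0 to 217 without single arrays. The 105 in ileum became 20, 1012 and 40 to 172 under the first, second and last of these, and the 37 of the interaction became 191 with weights, 23 with a fixed block and 12 to 84 without single arrays. Under vancomycin the 2961 between tissues became 1875 with the groups alone and 4903 with weights. The cause of these shifts was not tested. Other probe sets of a gene could not be tried, since each of the 35 has 1, and the groups were not compared alone for the interaction.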

Other observations

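Genes of secretagogue signalling, the hormones, transmitters and receptors that switch secretion on or off, were measured for 24 of 25 list entries. Without antibiotic 8 were higher and 4 lower in colon, against 11% and 9.59% of all probe sets. Npy1r, a receptor for the antisecretory peptides neuropeptide Y and peptide YY, was higher by 3.05 ± 0.33 (SE, adjusted p 1.14e-05), and Pyy, which encodes peptide YY of enteroendocrine cells, by 2.79 ± 0.27 (adjusted p 4.38e-06). P2ry4, a nucleotide receptor, differed by -3.13 ± 0.41 (adjusted p 6.51e-05) and Prkg2, the cyclic GMP-dependent kinase downstream of guanylin, by -2.79 ± 0.66 (adjusted p 0.00742), both lower in colon. With vancomycin 0 of 24 passed in either tissue, against 0.0102% of all probe sets in colon and 0.536% in ileum, and 5 in colon and 4 in ileum had an unadjusted p under 0.05, against 15.9% and 10.1%. In colon Pyy differed by -1.14 ± 0.27 (adjusted p 0.119) and Sstr2, a somatostatin receptor, by -1.06 ± 0.27 (adjusted p 0.133), and in ileum Galr1, a galanin receptor, by 0.43 ± 0.16 (adjusted p 0.364) and Prkg1, a cyclic GMP-dependent kinase of smooth muscle, by 0.91 ± 0.39 (adjusted p 0.454).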
